A study of Mus musculus with 4 samples.

Results

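The Notch genes described here are the receptors *Notch1*, *Notch2*, *Notch3* and *Notch4*, the ligands *Jag1* and *Dll4*, and the targets *Hes1*, *Hey1*, *Hey2* and *Heyl*. They were chosen by name as core genes of the pathway and make up 10 of the 32285 mouse genes counted. Their transcripts were followed in single endothelial cells and pericytes of the hyaloid vessels, a transient network that feeds the lens before birth and regresses afterwards. Each of the 10 genes had at least 1 UMI (a unique molecular identifier, counted once per captured molecule) in the 32 retained cells, as did 10829 genes in all.

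All pups were littermates that carried floxed alleles of *Gpr124* on both chromosomes, were of both sexes, received tamoxifen daily from P1 to P4 and were taken at P6. Control pups (*Gpr124* fl/fl) had no Cre. Knockout pups (*Gpr124* ∆EC/∆EC) also carried VECad-Cre-ERT2, a tamoxifen-dependent Cre driven by the VE-cadherin promoter, which is active in endothelial cells. Their pericytes were therefore not targeted by the Cre. Vitreous bodies were pooled by genotype, from 7 control and 9 knockout pups, and digested with Subtilisin A, which left 1 suspension, and so 1 sample, for each genotype. From each suspension, live cells were sorted into 1 plate through a CD31 gate and 1 plate through a PDGFRB gate, and the knockout PDGFRB-gate plate also received some cells of the CD31 gate in unknown wells. The plates were read by SORT-seq, in which single cells are sorted into a 384-well plate and each well has its own barcode. Not every well received a cell.

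Notch receptors span the cell membrane and are activated by Delta and Jagged ligands on a neighbouring cell. Binding permits cleavage by ADAM proteases and γ-secretase, and the freed intracellular domain joins RBPJ and Mastermind proteins in the nucleus, where it switches on repressors of the Hes and Hey families. In blood vessels, signaling from Dll4 to Notch1 restrains the formation of tip cells and favours arterial fate, whereas Notch3 is the receptor typical of mural cells, the pericytes and smooth muscle cells that cover the endothelium.

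Of 1536 wells, 47 held 1000 to 8000 UMIs after the plates were scaled to the highest plate median, and 5 of these had a mitochondrial share of 10% or more. The remaining wells were divided by *Cldn5*, a tight junction gene of endothelial cells, and *Pdgfrb*, the PDGF receptor of pericytes. There were 11 endothelial cells (*Cldn5* without *Pdgfrb*), 21 pericytes (*Pdgfrb* without *Cldn5*), 3 wells with both markers and 7 with neither. The knockout CD31-gate plate gave 4 endothelial cells and 0 pericytes, and the knockout PDGFRB-gate plate gave 2 and 12. The control CD31-gate plate gave 2 endothelial cells and 6 pericytes, and the control PDGFRB-gate plate gave 3 and 3. Gate and class thus often differed, and the class was used throughout.

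The endothelial cells held 31048 UMIs in all, with 1104 to 6901 per cell (median 3020), and the pericytes held 80460, with 1309 to 7222 per cell (median 3750). Within the endothelial cells, 15184 UMIs came from 5 control cells (median 3205) and 15864 from 6 knockout cells (median 1663), of which 1 cell gave 43.5%. Within the pericytes, 32109 UMIs came from 9 control cells and 48351 from 12 knockout cells. Marker lists were summed without *Cldn5*, *Pdgfrb* and the 10 Notch genes. The other 14 genes of the endothelial list summed to 123 (111–136) UMIs per 10000 in endothelial cells and 15.8 (13.2–18.8) in pericytes, with *Cd93* most abundant in both. The other 13 genes of the pericyte list summed to 14.2 (10.3–19.0) and 152 (144–161), with *Rgs5* most abundant in both. Genes of macrophages summed to 1.29 and 2.36 UMIs per 10000 in the same order, and those of smooth muscle to 6.44 and 28.3. The same 384 well barcodes were used in every plate. The barcode of 10 of the 32 retained cells also marked a well of at least 1000 UMIs in another plate. In the 7 pericytes among them *Notch3* stood at 13.3 UMIs per 10000, as in the 14 others at 13.3. *Heyl* stood at 6.29 and 10.7, *Notch1* at 4.44 and 1.68, and *Jag1* at 2.22 and 4.68 in the same order. In the 3 endothelial cells among them and the 8 others, *Hes1* stood at 3.36 and 7.83, *Notch4* at 0.841 and 3.13, and *Hey1* at 0 and 3.65. The part of shared barcodes in the levels was not tested.

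The deleted gene itself, *Gpr124* (listed as *Adgra2*, ENSMUSG00000031486), gave 2 UMIs in the control CD31-gate and 1 in the control PDGFRB-gate endothelial cells, a pooled level of 1.98 per 10000 (95% interval 0.407–5.77). Knockout endothelial cells gave 0 UMIs in both plates, for which the 95% interval reaches 2.33 per 10000, above the control level. In pericytes, *Adgra2* gave 6 UMIs in the control CD31-gate plate, 1 in the control PDGFRB-gate plate and 17 in the knockout PDGFRB-gate plate, or 3.33, 0.709 and 3.52 per 10000. SORT-seq counts the 3′ ends of transcripts, so a tag outside the deleted part checks nothing. The endothelial counts are also too low to separate the genotypes.

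Of the 10 Notch genes, 8 were detected in both classes, and *Notch2* and *Hey2* in pericytes only. *Notch3* and *Heyl* were the most abundant of the 10 genes in pericytes and near the limit of detection in endothelial cells. *Dll4*, *Notch4* and *Hey1* were pooled from 7 or 8 UMIs in endothelial cells and 1 to 3 UMIs in pericytes, although pericytes were sampled more deeply. *Jag1*, *Notch1* and *Hes1* were present in both classes. All levels below are UMIs per 10000 UMIs of the same cells. They count molecules by their 3′ ends and were not divided by transcript length. Intervals are exact 95% intervals for the error of counting alone, and leave out the spread of mice, suspensions and plates.

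**Figure D1:**
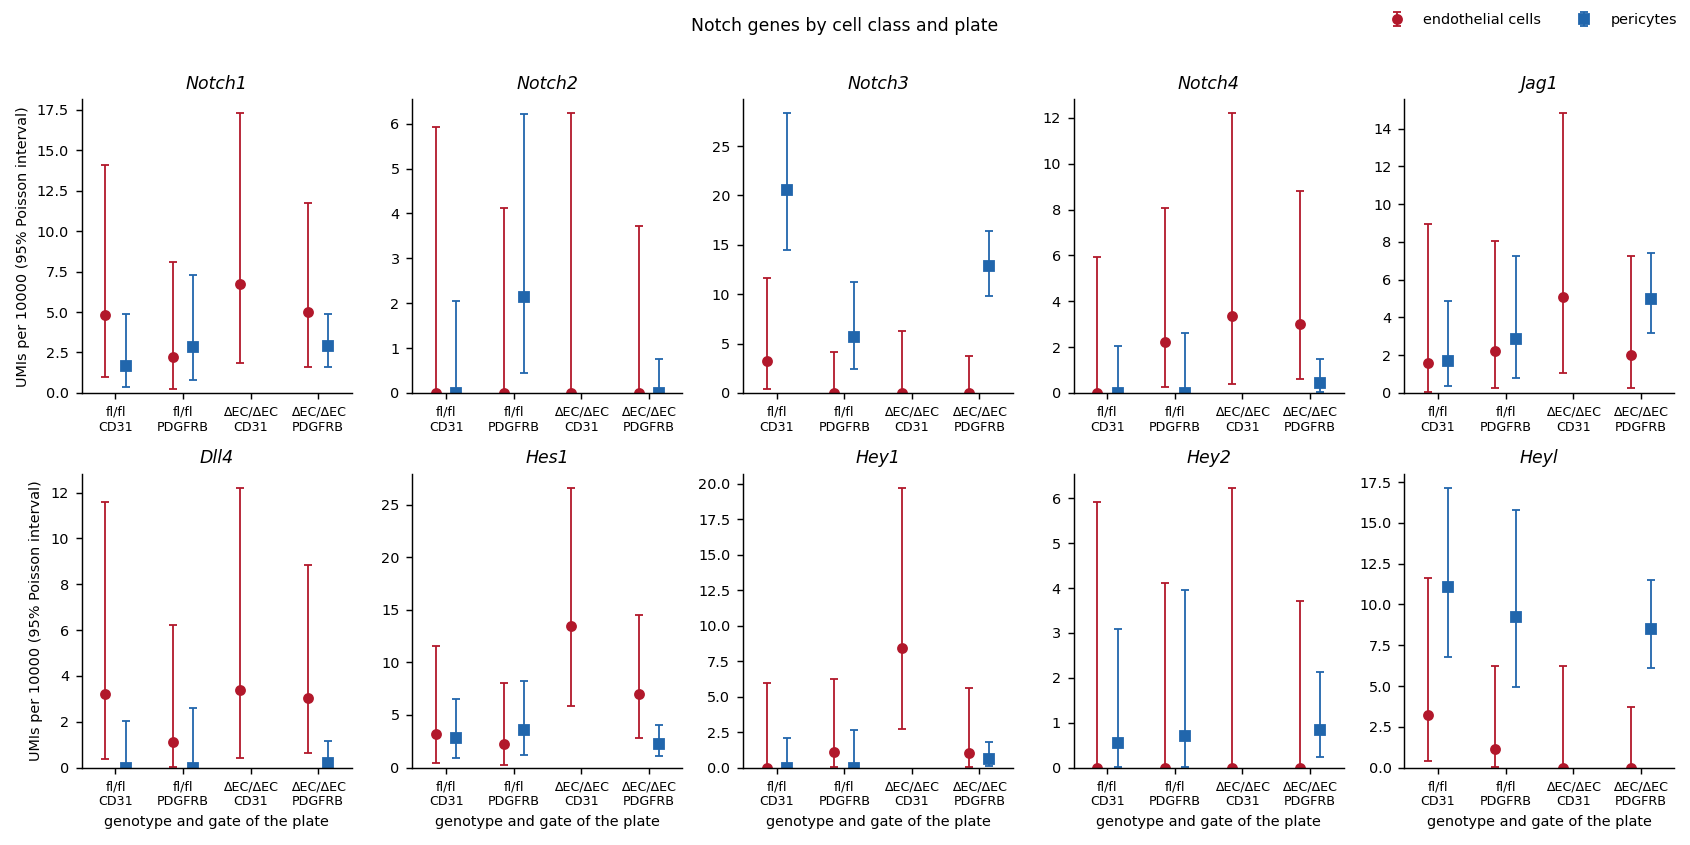
Level of each Notch gene (vertical axis, UMIs per 10000) in the cells of each class and plate (horizontal axis, genotype and sorting gate). Red circles are endothelial cells, blue squares are pericytes, and bars are exact 95% Poisson intervals. The knockout CD31-gate plate held 0 pericytes. As points, *Notch3* and *Heyl* in pericytes lay above every endothelial level, and *Dll4* in endothelial cells above every pericyte level. Some bars of the classes overlapped for each of these genes.

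Among the ligands, *Dll4* encodes the Delta ligand of tip and arterial endothelial cells. Its endothelial level was 3.38 in the knockout CD31-gate plate, 3.02 in the knockout PDGFRB-gate plate, 3.21 in the control CD31-gate plate and 1.12 in the control PDGFRB-gate plate. In pericytes it was 0.207 in the knockout plate, from 1 UMI in 1 cell, and 0 in both control plates. The levels of the classes did not overlap. Pooled, 8 endothelial UMIs against 1 pericyte UMI gave a ratio of 20.7 (2.78–920), an interval whose width reflects the single pericyte UMI. *Jag1*, the Jagged ligand made by both endothelial and mural cells, did not separate the classes. It ranged from 1.61 to 5.07 in the 4 endothelial sums and from 1.67 to 4.96 in the 3 pericyte sums, and the pooled ratio of endothelial cells to pericytes was 0.669 (0.266–1.49). *Jag1* made up 96.9% (83.8–99.9) of the 32 UMIs of these ligands in pericytes and 50% (24.7–75.3) of the 16 in endothelial cells.

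Among the receptors, *Notch3* was the most abundant in pericytes. Its pericyte level was 20.5 (14.5–28.3) in the control CD31-gate plate, 5.68 (2.45–11.2) in the control PDGFRB-gate plate and 12.8 (9.83–16.4) in the knockout PDGFRB-gate plate. In endothelial cells it was 3.21 in the control CD31-gate plate, from 1 UMI in each of 2 cells, and 0 in the other 3 plates. The classes did not overlap, and the pooled levels of 13.3 and 0.644 made *Notch3* 20.6-fold (5.58–173) higher in pericytes. *Notch3* gave 80.5% (72.7–86.8) of the 133 receptor UMIs of pericytes and 8.70% (1.07–28.0) of the 23 of endothelial cells. The 2 endothelial cells with these UMIs also held other genes of the pericyte list. In the endothelial cells of the control CD31-gate plate, 13 pericyte genes (the list without *Pdgfrb* and *Notch3*) summed to 32.1 per 10000. *Mcam* gave 10 of these 20 UMIs, and 8 of the 13 genes were at 0. The sum was 11.8, 14.1 and 3.35 in the endothelial cells of the knockout CD31-gate, knockout PDGFRB-gate and control PDGFRB-gate plates, and 97.9 to 164 in the pericyte sums. By cell, the sum was 28.1 and 36.4 in the 2 endothelial cells with a *Notch3* UMI. It was 28.0 in 1 knockout CD31-gate cell, which held 5 *Rgs5* UMIs but 0 of *Notch3* and *Heyl*. The part of pericyte-list transcripts in the endothelial *Notch3* level was not tested.

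*Notch1*, the receptor through which Dll4 acts on the endothelium, was the most abundant receptor in endothelial cells. Its level there was 6.75 in the knockout CD31-gate plate, 5.03 in the knockout PDGFRB-gate plate, 4.82 in the control CD31-gate plate and 2.23 in the control PDGFRB-gate plate. Pericyte levels ranged from 1.67 to 2.90 and overlapped the lowest endothelial level. Pooled levels of 4.51 (14 UMIs) and 2.61 (21 UMIs) gave a ratio of 1.73 (0.813–3.56), not distinguishable from equal at this depth. *Notch1* supplied 60.9% (38.5–80.3) of the endothelial receptor UMIs and 15.8% of those of pericytes. *Notch4*, an endothelial receptor in mice, supplied 30.4% (13.2–52.9) of the endothelial receptor UMIs. It gave 7 UMIs in 5 of 11 endothelial cells and 2 UMIs in 2 of 21 pericytes, a pooled ratio of 9.07 (1.73–89.5). Its plate levels nevertheless overlapped, because the control CD31-gate endothelial cells had 0 UMIs. *Notch2*, a receptor used in many tissues, gave 0 UMIs in endothelial cells, which allows up to 0.966 per 10000, and 3 UMIs in 2 pericytes, both in the control PDGFRB-gate plate.

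Among the targets, *Heyl*, a Hey family repressor, followed the class as *Notch3* did. Its pericyte level was 11.1 (6.78–17.1) in the control CD31-gate plate, 9.22 (4.91–15.8) in the control PDGFRB-gate plate and 8.48 (6.09–11.5) in the knockout PDGFRB-gate plate. In endothelial cells it was 3.21 and 1.12 in the control CD31-gate and PDGFRB-gate plates, from 3 UMIs in 3 cells, and 0 in both knockout plates. Again the classes did not overlap, and the pooled levels of 9.20 and 0.966 made *Heyl* 9.52-fold (3.13–47.2) higher in pericytes. Unlike *Notch3*, it varied little between the pericyte plates. *Heyl* gave 71.2% (61.4–79.6) of the 104 target UMIs of pericytes. *Hey2*, the other repressor of this family at low level, gave 6 UMIs in 5 pericytes and 0 in endothelial cells. Its plate levels of 0.555 to 0.827 in pericytes did not overlap the endothelial zeros, but 0 of 31048 UMIs allows up to 0.966, more than any of them.

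*Hes1*, a Notch target that many other signals also induce, gave 65.5% (45.7–82.1) of the 29 target UMIs of endothelial cells. Its endothelial level was 13.5 (5.83–26.6) in the knockout CD31-gate plate, 7.04 (2.83–14.5) in the knockout PDGFRB-gate plate, 3.21 (0.389–11.6) in the control CD31-gate plate and 2.23 (0.270–8.06) in the control PDGFRB-gate plate. In pericytes it was 2.28 to 3.55. The pooled ratio of 2.34 (1.19–4.58) in favour of endothelial cells thus rested on the knockout plates, where 2 cells held 12 of the 19 endothelial UMIs, and both control endothelial levels lay within or just under the range of the pericytes. *Hey1*, an endothelial Hey gene, gave 7 UMIs in 4 of 11 endothelial cells and 3 UMIs in 2 of 21 pericytes (ratio 6.05, 1.38–36.2). Of the endothelial UMIs, 5 came from the knockout CD31-gate plate, whose level of 8.44 stood above 1.01, 0 and 1.12 in the other 3.

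Counted over the 10 genes, the interval of the pooled ratio excluded equal levels in the direction of endothelial cells for 4 of 10 genes that could have reached it, against 8.66% of 7010 genes. In the direction of pericytes it did so for 2 of 5, against 15.6% of 2201. Levels that did not overlap between the plates of the classes were found for 1 of the 10 genes with endothelial cells higher (*Dll4*), against 1.68% of 10829 genes, and for 3 with pericytes higher (*Notch3*, *Hey2* and *Heyl*), against 6.18%. The levels compared for overlap are point values without their counting error. These shares describe the data set and are no test of the list.

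The classes were also tested over plates, with 4 endothelial and 3 pericyte sums as replicates in edgeR's quasi-likelihood test. The filter on low counts kept 148 genes, of which 12.8% (19 genes) were called higher in endothelial cells and 23.6% (35 genes) higher in pericytes at an adjusted p under 0.05. Without TMM scaling the split was 46 and 23, and with the plate as a replicate block, which pairs the classes within a plate, 12 genes were called higher in endothelial cells. None of the 10 Notch genes passed this filter, so 0 of 10 were tested there, and the test says nothing about them. Plates of a genotype share a suspension, and p-values therefore measure only a spread between plates that is partly technical.

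With no filter on low counts, 10829 genes were tested and 2 of the 10 Notch genes were called, both higher in pericytes, against 1.74% of all genes. The balance of that background depended on the scaling, with 50 genes called higher in endothelial cells and 188 in pericytes with TMM, 95 and 73 without TMM, and 66 and 94 with DESeq2. The 2 Notch genes were called in all 3. *Notch3* had a log2 fold change of endothelial cells over pericytes of −4.93 (SE 0.76, edgeR adjusted p = 6.59e-08), and *Heyl* of −3.93 (SE 0.75, adjusted p = 5.13e-05). Both were lower in each of the 4 endothelial sums than in each of the 3 pericyte sums. In the direction of endothelial cells edgeR called 0 of the 10, against 0.462% of all genes, and DESeq2 also called 0. *Dll4* came nearest, at a log2 fold change of 3.02 (SE 1.33, edgeR adjusted p = 0.338). Its adjusted p was 0.147 in edgeR without TMM and 0.0961 in DESeq2. At an unadjusted p under 0.05, edgeR gave 4 of the 10 (*Notch3*, *Heyl*, *Dll4* and *Hey2*), against 10.7% of all genes (1163 of 10829), and DESeq2 gave 3, against 4.16% (451 of 10829). The median log2 fold change of all genes was −1.15 with TMM scaling and −0.42 without, and that of the 10 was −0.62 and 0.22, so that its sign turned with the scaling. With DESeq2 the medians were 0.10 and −0.06. The median of the 10 includes *Notch2* and *Hey2*, whose fitted folds rest on 0 endothelial UMIs, depend on the prior count and are no bounds. Relative to the median of all genes, with and without TMM scaling, *Notch3* stood at −3.78 and −3.76, *Heyl* at −2.78 and −2.77, and *Dll4* at 4.17 and 4.20.

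A filter of at least 15 UMIs over all sums, chosen after the data were seen, kept 1680 genes and 5 of the 10. *Notch3* (log2 fold change −4.44, edgeR adjusted p = 2.07e-07) and *Heyl* (−3.44, adjusted p = 7.70e-05) were called higher in pericytes there, against 12% of genes in that direction and 3.99% in the other. Both passed the filter almost wholly through their pericyte counts and so had to differ, and these calls add no support to those made without a filter. Over 13 alternative settings of the class test, which leave out that filter, each gene was called in 11. The exceptions were cells classed by gate, where log2 fold changes were 0.17 for *Notch3* (adjusted p = 0.935) and −0.36 for *Heyl* (adjusted p = 0.915), and the test without the control PDGFRB-gate plate, where adjusted p was 0.361 for *Notch3* and 0.540 for *Heyl* at log2 fold changes of −4.78 and −4.05. Of all genes, 2 of 11486 were called by gate and 6 of 10196 without that plate, all higher in pericytes. Over all 13, edgeR or DESeq2 adjusted p ranged from 6.62e-08 to 0.935 for *Notch3* and from 5.14e-05 to 0.915 for *Heyl*. Log2 fold changes ranged from −7.39 to 0.17 for *Notch3* and from −4.92 to −0.36 for *Heyl*. The lowest of each came from the test without the control CD31-gate plate, and the highest from cells classed by gate.

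Within pericytes, *Notch3* and *Heyl* were detected in nearly every cell. *Notch3* had a UMI in 20 of 21 pericytes and 2 of 11 endothelial cells, and *Heyl* in 19 of 21 and 3 of 11. With every cell thinned to 1000 UMIs the expected numbers were 14.9 and 0.643 cells for *Notch3*, and 12.4 and 1.23 for *Heyl*, so that the classes also differed at equal depth. Both genes were found together in 18 of 21 pericytes, and every pericyte had at least 1 of them. Levels were compared from cell to cell for 5 pairs of genes over the 21 pericytes, which come from 3 plates and differ in depth. Pearson r and Spearman rho were −0.0857 and 0.0393 for *Notch3* with *Heyl*, and 0.428 and 0.415 for *Notch3* with *Hes1*. Both measures lay between −0.123 and 0.0886 for the other 3 pairs. In counts this sparse these are descriptions. *Jag1* was present with *Notch3* in 13 pericytes. In endothelial cells, a UMI of any receptor was found in 9 of 11 cells, of any ligand in 10 and of any target in 11. *Notch1* and *Hes1* were found together in 6 of 11 endothelial cells, all 6 with a *Notch1* UMI. *Notch1* and *Dll4* were found together in 4.

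**Figure D2:**
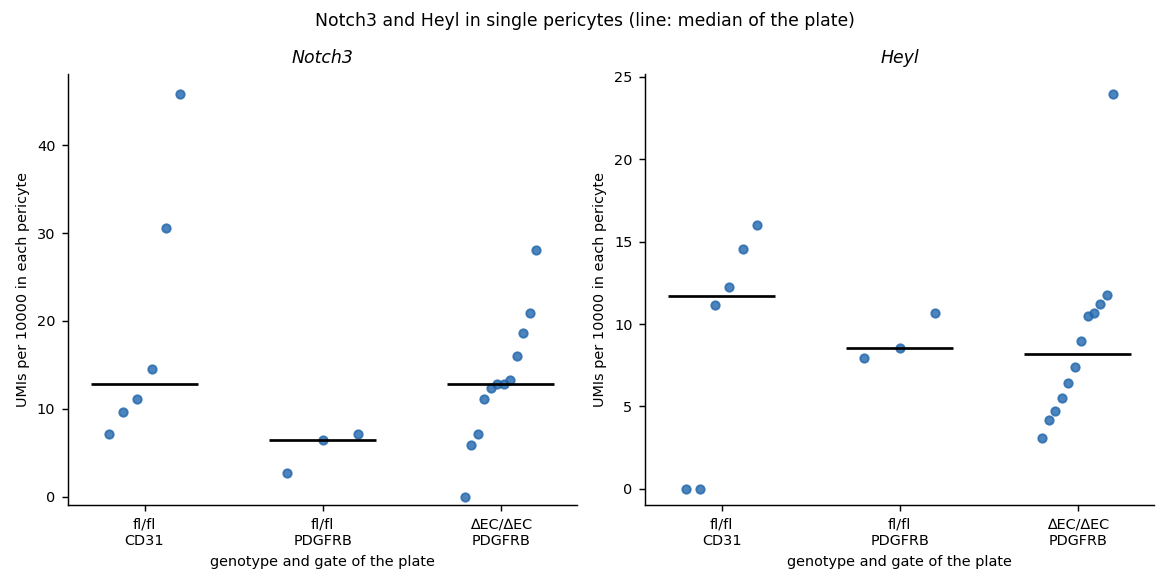
*Notch3* and *Heyl* in single pericytes (vertical axis, UMIs per 10000 in each cell) by plate (horizontal axis, genotype and gate). Each point is 1 cell and the line is the median of the plate. *Notch3* reached 45.8 in the control CD31-gate plate and stayed at or under 7.12 in the 3 cells of the control PDGFRB-gate plate, whereas the plate medians of *Heyl* lay between 8.16 and 11.7.

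Between plates, *Notch3* varied more than *Heyl*. The median pericyte held 12.9 *Notch3* UMIs per 10000 in the 6 cells of the control CD31-gate plate (7.12 to 45.8), 6.39 in the 3 cells of the control PDGFRB-gate plate (2.65 to 7.12) and 12.8 in the 12 cells of the knockout PDGFRB-gate plate (0 to 28.0). The medians of *Heyl* were 11.7, 8.52 and 8.16 in the same order. Of the 37 *Notch3* UMIs of the control CD31-gate pericytes, 20 came from 1 cell. Both control plates hold pericytes of 1 suspension, so their difference in *Notch3* arose within a genotype. The knockout plate comes from another suspension.

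In levels over the 7 class-by-plate sums, genes among the 3 most like *Notch3*, of 616 genes with at least 30 UMIs, included *Sept11* (Pearson r 0.954) and *Ednra* (0.954). Those most like *Heyl* were *Igf2r* (0.990), *Sept11* (0.983) and *Nr2f2* (0.976). Those among the 3 most like *Notch1* included *Ctnnb1* (0.94) and *Dusp6* (0.859), those most like *Jag1* were *Epb41l2* (0.915), *Atp6v0c* (0.846) and *Bmpr2* (0.845), and those most like *Hes1* were *Tcf4* (0.911), *P4hb* (0.868) and *Rpl27* (0.866). These are descriptions, because sums of a plate share its depth and sums of a class share its cells. The other 5 Notch genes had fewer than 30 UMIs.

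The genotypes were compared within each class to ask whether endothelial loss of *Gpr124* went with other Notch levels. With 1 suspension per genotype the difference has no replicate check, no p-value is given, and each ratio compares these pools of cells. In endothelial cells, *Hes1* was higher in knockout cells, at 9.46 (5.29–15.6) from 15 UMIs against 2.63 (0.718–6.74) from 4 UMIs in control cells, a difference of 3.59-fold (1.14–14.9). It was detected in 4 of 6 knockout and 4 of 5 control cells. Both knockout plates lay above both control plates. The same order held for *Notch1* and *Notch4*, and the reverse order for *Heyl*, from 0 UMIs in both knockout plates. How many of all genes show such an order was not counted. In pericytes *Hes1* was 2.28 and 3.11, a ratio of control over knockout of 1.37 (0.521–3.55).

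The *Hes1* difference rested on few cells. Of the 15 knockout UMIs, 12 came from 2 cells with 6 each, 1 in each knockout plate, which held 1541 and 3041 UMIs in all. The other 4 knockout cells held 3 *Hes1* UMIs in 11282, or 2.66 per 10000, close to the 2.63 of control cells. The choice of these 2 cells followed from their values. Among 8 alternative settings that changed the endothelial cells used, the interval excluded equal levels in 3, and knockout cells were higher in all 8. Without the knockout CD31-gate plate it was 2.67-fold (0.679–12.5), without the control CD31-gate plate 4.24-fold (0.985–38.2), without the control PDGFRB-gate plate 2.94-fold (0.684–26.5), and with a mitochondrial limit of 5% it was 3.36-fold (0.951–18.1). In the CD31-gate plates alone it was 4.20-fold (0.839–40.6). Without the largest cell of each genotype, which held 1 *Hes1* UMI in knockout and 1 in control, it was 5.98-fold (1.67–32.4). The erythroid genes of the same cells also differed, with 153 UMIs per 10000 in control and 4.41 in knockout endothelial cells, with the control UMIs all from the PDGFRB-gate plate, led by *Hba-a2* and with 6 of 10 genes at 0. Genes induced by dissociation, led by *Jun*, summed to 6.59 and 12.6, with 9 and 8 of 15 at 0. Smooth muscle genes summed to 3.29 (1.07–7.68) in control cells, led by *Acta2*, and 9.46 (5.29–15.6) in knockout cells, led by *Mylk*, with 5 and 4 of 7 at 0, among them *Myh11*, *Tagln* and *Cnn1* in both. The sums were 3.21 and 3.35 in the control CD31-gate and PDGFRB-gate plates and 8.44 and 10.1 in those of knockout cells. The general endothelial list was also higher in both knockout plates. Their part in the *Hes1* difference was not tested.

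Among the 6 Notch genes with enough UMIs to reach it, 1 (*Hes1*) was higher in knockout endothelial cells by this measure, against 6.02% of 1196 genes, and 0 were higher in control cells, against 3.93%. The other genes could not be told apart between the genotypes at this depth. *Hey1*, with 1 control and 6 knockout UMIs, was 5.74-fold higher in knockout cells with an interval of 0.697 to 264. Of the 6 UMIs, 4 came from 1 cell that held 1104 UMIs. The fold was 1.53 (0.0195–120) without the knockout CD31-gate plate and 12.8 (1.43–606) without the knockout PDGFRB-gate plate. *Notch1* gave 5 control and 9 knockout UMIs (3.29 and 5.67 per 10000), *Notch4* 2 and 5, and *Jag1* and *Dll4* each 3 and 5. The endothelial UMIs of *Notch3* (2) and *Heyl* (3) were all from control cells, and 0 of 15864 UMIs in knockout cells allows up to 1.89 per 10000. *Notch2* and *Hey2* gave 0 in both genotypes. The median log2 ratio of control over knockout was −0.90 over the 6 genes and 0.06 over the 1196.

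In pericytes, where the Cre is not active, 0 of 6 Notch genes had an interval in favour of control cells, against 3.17% of 3940 genes, and 0 of 5 in favour of knockout cells, against 3.46% of 2429. *Notch3* was 14.0 (10.2–18.8) in control and 12.8 (9.83–16.4) in knockout pericytes, a ratio of 1.09 (0.728–1.63). That ratio changed direction with the plate left out. It was 0.443 (0.183–0.927) without the control CD31-gate plate and 1.60 (1.04–2.45) without the control PDGFRB-gate plate. *Heyl* was 10.3 (7.07–14.4) and 8.48 (6.09–11.5), a ratio of 1.21 (0.743–1.96). By counting error alone, the intervals of all plates leave room for up to 1.63-fold and 1.96-fold in favour of control cells. In favour of knockout cells they leave room for up to 1.37-fold and 1.35-fold. Without the control CD31-gate plate *Notch3* lay beyond that, at 2.26-fold higher in knockout cells. *Jag1* was 2.18 (7 UMIs) in control and 4.96 (24 UMIs) in knockout pericytes, which was 2.28-fold (0.952–6.26) higher in knockout and did not exclude equal levels. Without the upper UMI limit it was 2.08-fold (1.03–4.55), an interval that excluded them, and with a mitochondrial limit of 5% it was 1.28-fold (0.406–4.36). Genes induced by tissue dissociation, led by *Egr1*, summed to 11.8 in control and 28.3 in knockout pericytes, with 5 and 2 of 15 at 0. Macrophage genes gave 0 UMIs in control pericytes (15 of 15 genes at 0) and 3.93 per 10000 in knockout pericytes (6 of 15 at 0), led by *C1qc*. Erythroid genes summed to 2.80 and 9.93, with 3 and 4 of 10 at 0, led in knockout pericytes by *Hbb-bh1*. Their part in the *Jag1* values and in the other pericyte ratios was not tested. The median log2 ratio was 0.13 over the 5 Notch genes and 0.03 over the 2429 genes.

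**Figure D3:**
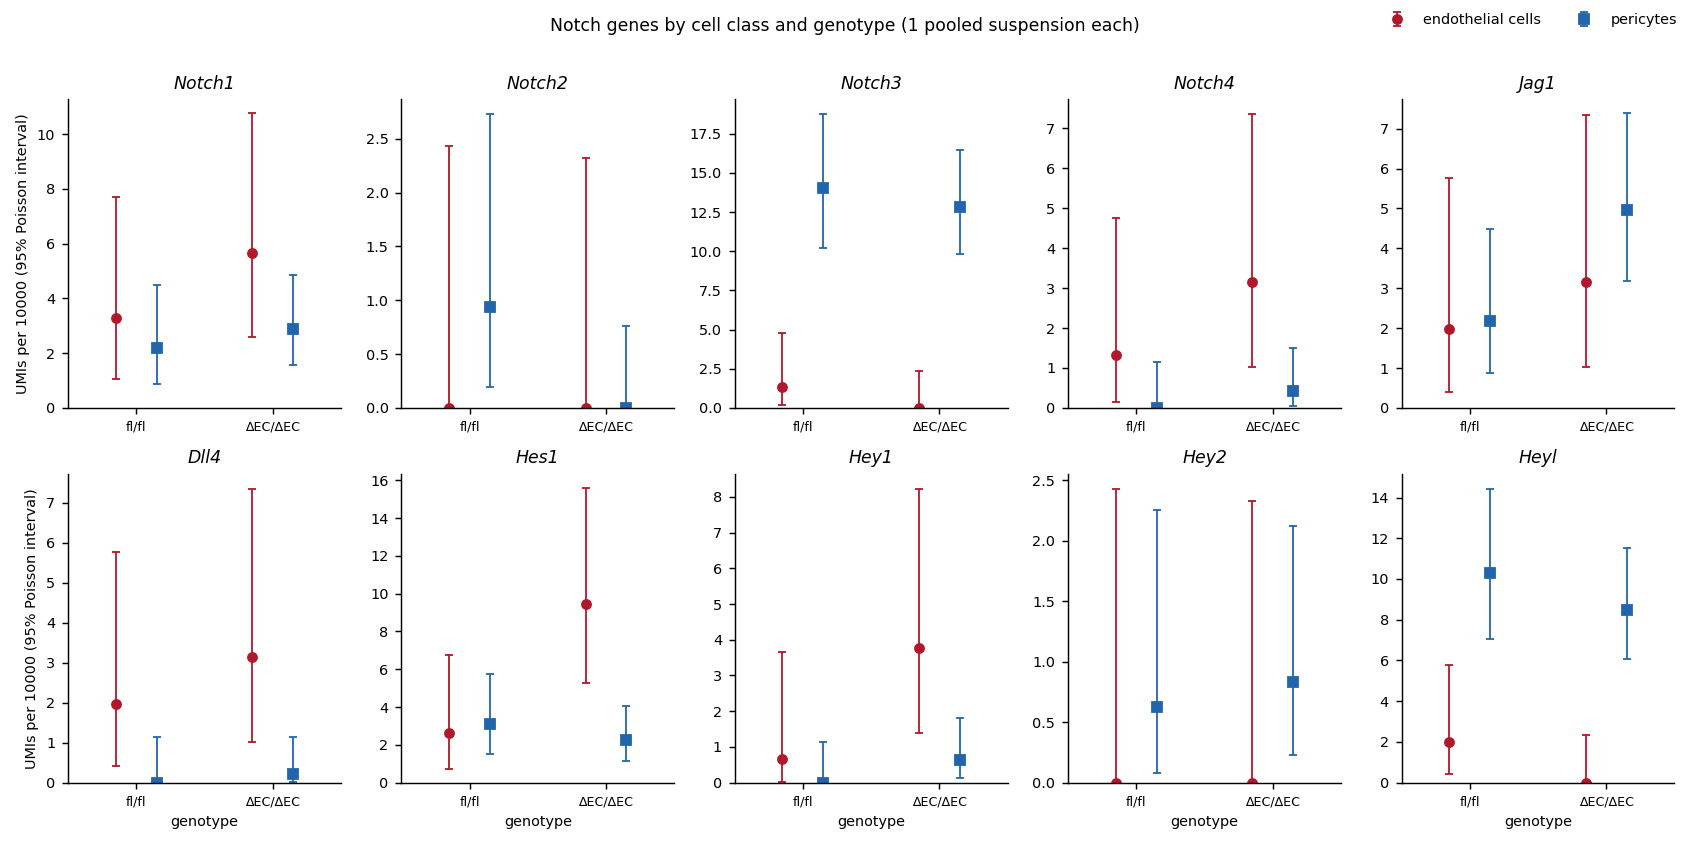
Level of each Notch gene (vertical axis, UMIs per 10000) by genotype (horizontal axis) and class. Red circles are endothelial cells, blue squares are pericytes, and bars are exact 95% Poisson intervals for 1 pooled suspension per genotype. *Hes1* in endothelial cells was 2.63 in control and 9.46 in knockout cells. *Notch3* and *Heyl* in pericytes overlapped between the genotypes.

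Other genes of the pathway were taken from lists by role and tested over plates without the filter on low counts, with edgeR and adjustment over all 10829 genes, of which 0.462% were called higher in endothelial cells and 1.74% higher in pericytes. Of 5 other ligands, 2 had UMIs and 1 was called. *Dlk1*, a ligand-like protein without the Delta domain that activates Notch, had 26 UMIs in 12 of 21 pericytes and 0 in endothelial cells (log2 fold change −5.77, adjusted p = 0.00297). *Jag2* was the most abundant in endothelial cells with 4 UMIs. None of the 16 measured genes for ligand and receptor processing was called by edgeR. The Fringe glycosyltransferase *Mfng*, the most abundant in endothelial cells, had 10 UMIs in 9 of 11 endothelial cells and 0 in pericytes (4.83, adjusted p = 0.0502), and the protease gene *Furin* led in pericytes with 15 UMIs. None of the 20 genes of the nuclear complex was called, with *Tle5* leading in endothelial cells (15 UMIs) and *Ncor1* in pericytes (26 UMIs). *Aes*, a name on this list, is not among the gene symbols used.

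Among 12 measured inhibitors and turnover genes, 1 was called, higher in endothelial cells (0.462% of all genes). *Egfl7*, a secreted endothelial protein that binds Notch receptors, gave 43 UMIs in 9 of 11 endothelial cells and 1 in pericytes (log2 fold change 5.33, edgeR adjusted p = 2.41e-06). *Dtx3*, a Deltex family gene, led in pericytes with 23 UMIs. Among 12 other targets, 1 was called, and it was higher in pericytes (1.74% of all genes). *Gja4*, the gap junction gene connexin 37 often used as an arterial endothelial marker, had 71 UMIs in 18 of 21 pericytes and 5 in 2 endothelial cells (−3.19, adjusted p = 0.000770). *Ccnd1* led in endothelial cells with 15 UMIs.

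Endothelial subtype lists were described in the same way, against the same 0.462% of all genes called higher in endothelial cells and 1.74% called higher in pericytes. Of 13 measured arterial genes, which include *Dll4*, *Jag1* and *Hey1*, *Sox18* was called higher in endothelial cells (log2 fold change 5.07, edgeR adjusted p = 0.0230) and *Gja4* higher in pericytes. *Unc5b* and *Sox18* were the most abundant arterial genes in endothelial cells, each with 12 UMIs. Of 6 venous genes, *Aplnr* (4.01, adjusted p = 0.0166), *Vwf* (5.10, adjusted p = 0.0211) and *Flt4* (adjusted p = 0.0310) were called higher in endothelial cells. *Nr2f2*, a venous transcription factor, was called higher in pericytes, with 72 UMIs against 4 (−3.40, adjusted p = 0.000527). Of 9 tip cell genes, *Igfbp3* was called higher in endothelial cells (5.23, adjusted p = 0.0129), and *Pdgfb* was the most abundant there with 17 UMIs. *Unc5b* led this list in pericytes with 31 UMIs. Fitted folds of genes with 0 UMIs in a class (*Dlk1*, *Mfng*, *Sox18*, *Vwf*, *Flt4* and *Igfbp3*) depend on the prior count and are no bounds. With the plate as a replicate block, *Dlk1*, *Aplnr*, *Sox18*, *Vwf*, *Flt4* and *Igfbp3* were not called, and *Egfl7*, *Gja4* and *Nr2f2* were. Of 13 alternatives, *Egfl7* was called in 11, *Nr2f2* in 10, *Gja4* in 9, *Dlk1* in 8, *Aplnr* in 7, *Sox18* in 6, *Igfbp3* in 5, and *Vwf* and *Flt4* in 4 each. None of the 9 was called without the control PDGFRB-gate plate.

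Markers of other cells that a dissected vitreous could hold were summed in the same way. Of 15 lens genes, 107 UMIs were found in pericytes, 106 of them *Cryab*, a small heat shock gene also active outside the lens, and 0 in endothelial cells. Astrocyte genes gave 0 UMIs in both classes, and melanocyte genes summed to 0.322 in endothelial cells and 1.37 in pericytes. Genes of retinal progenitors summed to 3.86 and 4.97, and those of retinal neurons, led by *Rbpms*, to 5.80 and 3.98. Erythroid genes summed to 77.3 and 7.08, and genes induced by dissociation to 9.66 and 21.7. The endothelial erythroid UMIs came mostly from the control PDGFRB-gate plate, where *Hba-a2* alone stood at 102 per 10000. Without that plate, erythroid genes stood lower in endothelial cells than in pericytes. Their part in the class differences of the Notch genes was not tested.

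Summed over the endothelial cells, arterial genes stood at 19.1 (12.8–27.4) in control and 35.9 (27.2–46.6) in knockout cells, tip cell genes at 11.9 (7.03–18.7) and 24.0 (17.0–32.9), and venous genes at 12.5 (7.53–19.5) and 20.2 (13.8–28.5). By plate, in the order control CD31-gate, control PDGFRB-gate, knockout CD31-gate and knockout PDGFRB-gate, arterial genes stood at 12.9, 23.4, 49.0 and 28.2. Tip cell genes stood at 16.1, 8.93, 33.8 and 18.1, and venous genes at 25.7, 3.35, 27.0 and 16.1. Both knockout plates lay above both control plates for the arterial and tip cell lists. The same held for the 15 genes of the general endothelial list, *Cldn5* included, which stood at 135, 122, 187 and 147 by plate, and at 127 (110–146) in control and 162 (143–183) in knockout cells. Its part in the sums of the subtype lists was not tested. For the venous list the plates overlapped, and without the control PDGFRB-gate plate the direction turned, at 25.7 in control and 20.2 in knockout cells. The lists share genes with each other and with the 10, and no test between genotypes was made.

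Gene positions are those of GRCm38 (GENCODE M21). The receptors are *Notch1* (ENSMUSG00000026923) at chr2:26457903-26516663 on the minus strand, *Notch2* (ENSMUSG00000027878) at chr3:98013527-98150361 on the plus strand, *Notch3* (ENSMUSG00000038146) at chr17:32120820-32166852 on the minus strand and *Notch4* (ENSMUSG00000015468) at chr17:34564268-34588503 on the plus strand. The ligands are *Jag1* (ENSMUSG00000027276) at chr2:137081456-137116644 on the minus strand and *Dll4* (ENSMUSG00000027314) at chr2:119325784-119335962 on the plus strand. The targets are *Hes1* (ENSMUSG00000022528) at chr16:30064384-30067796 on the plus strand, *Hey1* (ENSMUSG00000040289) at chr3:8663359-8667256 on the minus strand, *Hey2* (ENSMUSG00000019789) at chr10:30832359-30842801 on the minus strand and *Heyl* (ENSMUSG00000032744) at chr4:123233556-123249875 on the plus strand. Where the annotation places another gene on the same strand, as at *Notch1* (*Mir6996*) and *Notch2* (*Gm42819* and *Gm42820*), counts of the pair could be shared. Genes on the other strand overlap *Notch1*, *Notch3*, *Notch4* and *Dll4*, and the strand setting of the counting is not given in the sources used here.

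Because the effector RBPJ binds DNA, the 250 bases before the start of each gene were searched for its core motif TGGGAA, read on the other strand as TTCCCA, in the RefSeq promoter table (GRCm38.p6). The motif was present in 21.6% of 32851 promoters. The table held 7 of the 10 genes, and *Hes1*, *Hey1* and *Heyl* are named only. It was present in 1 of the 7, *Hey2*, 207 bases before the start, and there it also read as the longer GTGGGAA, found in 5.42% of promoters and overlapping the core motif. The site is shown because it is the only match among these genes. It lies at chr10:30842974-30843001 and is read on the minus strand, with the motif in capitals.
Hey2: gcgcggtggcaTTCCCAcgcctctgcca
A match is a description of letters and no evidence of binding, and its absence says only that these letters were not in the window.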

How the data were processed

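The authors sorted single cells into 4 SORT-seq plates, aligned reads to GRCm38 with STARsolo 2.7.11b and deposited a matrix for each plate. Its values are estimated counts from the authors, which are UMI numbers corrected for collisions and left unscaled. Values were rounded to whole UMIs per well. Spike-ins (92) were left out, well totals were scaled to the highest plate median for the limits of 1000 and 8000 UMIs, and the mitochondrial share was taken over 13 genes. Doublets were not called, and the 3 wells with both markers were left out. UMIs were summed per class and plate. Intervals are exact Poisson, Clopper-Pearson or conditional binomial, at 95%, with a floor of 3 counts.

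Classes were compared with edgeR 4.0.16 (limma 3.58.1, R 4.3.3; glmQLFit, glmQLFTest, TMM, filterByExpr, Benjamini-Hochberg over all genes), with DESeq2 1.42.0 as an alternative, and the methods were tested on simulated data. Likeness used log2(UMIs per 10000 + 1). Other steps used python 3.11.15, numpy 2.4.6, pandas 2.3.3 and scipy 1.17.1, and figures matplotlib 3.10.9. The plate pairs the classes as a replicate block because both come from 1 suspension. Genes outside the 10 are named where a list gene was called (at most 5 per list), led its list in a class, or was among the 3 most alike, of which some are not reported here. Marker genes were named after their values were seen. The members and lists were chosen with earlier results of these data known, and the dissociation list was added to those of the plan.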

Additional observations from a re-analysis of the deposited data

Results flagged for a closer look

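In 3 genes the gap between 1 endothelial plate level and the nearest of the others took up at least 0.84 of the 4-plate range. This share was 1 for *Notch3*, 0.841 for *Dll4* and 0.868 for *Hey1*. *Notch3* was 3.21 UMIs per 10000 in the control CD31-gate plate and 0 elsewhere, *Dll4* was 1.12 in the control PDGFRB-gate plate, below the rest, and *Hey1* was 8.44 in the knockout CD31-gate plate, above the rest. Their counting intervals of 0.389–11.6, 0.0283–6.22 and 2.74–19.7 overlapped those of the other plates, so the plates are not shown to differ. Chance gives such a gap in about 1 in 20 groups of normally distributed values. That rate does not hold for the 1 to 5 UMIs behind each of these, and 8 genes were screened.

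The log2 ratio of control over knockout for *Hes1* was −1.84 in endothelial cells and 0.45 in pericytes, and the plates of the genotypes were ordered in opposite ways. The interval of the pericyte ratio included equal levels (0.521–3.55), and the ratio was 0.654 with cells classed by gate. The difference between the classes was not tested.

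Wells outside the classes also held Notch transcripts, above the limit that a count of 0 allows. The 1478 wells under 1000 UMIs, most of which hold few transcripts, together had 225601 UMIs, with *Notch3* at 5.36 per 10000 (121 UMIs in 100 wells), *Heyl* at 2.53, *Hes1* at 2.17, *Jag1* at 0.754, *Notch2* at 0.621, *Notch1* and *Hey1* each at 0.399, *Notch4* at 0.266 and *Hey2* at 0.177. *Notch3* was 8.33-fold (2.26–69.5) the endothelial level there and 0.403-fold (0.308–0.528) the pericyte level. It was similar in the 4 plates, from 4.46 in the control PDGFRB-gate to 6.40 in the knockout PDGFRB-gate plate.

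Of the 11 wells over 8000 UMIs, 8 held *Pdgfrb* without *Cldn5* and 3 held neither. *Notch3* was 9.81 there and present in 11 of 11, with *Heyl* at 5.70, *Hes1* at 4.64, *Notch1* at 2.74, and *Jag1* and *Hey2* each at 1.69. The 3 wells with both markers held *Notch3* at 17.0, *Heyl* at 8.84, *Notch4* and *Jag1* each at 3.40, and *Notch1* and *Hey2* each at 2.72. Of the 25 *Notch3* UMIs in them, 19 came from 1 well. The 7 wells with neither marker held *Notch3* at 8.09, of which 7 of 8 UMIs came from 1 well, *Notch1* at 7.08 and *Hes1* at 4.04. The 5 wells with a mitochondrial share at or over the limit held *Heyl* at 7.94, from 5 UMIs in 4 wells. Whether any of these wells holds 1 cell was not tested.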

How the results depend on the processing

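The class test was repeated with other limits, scaling, tools, filters and plates, 1 choice at a time. Genes called higher in endothelial cells numbered 19, against 0 with cells classed by gate, 9 with DESeq2, 46 without TMM, 50 without the filter on low counts, 67 with at least 15 UMIs and 9 to 20 without each plate in turn. Those called higher in pericytes numbered 35, against 0 by gate, 23 without TMM, 188 without the filter, 202 with at least 15 UMIs and 19 to 38 without each plate. With the plate as replicate block, the endothelial count was 12, and *Notch3* (log2 fold change −4.62, edgeR adjusted p = 1.30e-05) and *Heyl* (−3.62, adjusted p = 0.00297) remained called without the filter. The cause of these shifts was not tested.

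With the filter, 0 of the 10 Notch genes were tested and so 0 could be called, while 36.5% of the 148 tested genes were called. Without it, 10 were tested and 2 called, against 2.20% of 10829 genes. With at least 15 UMIs, 5 were tested and 2 called, against 16% of 1680 genes. Without each plate and with the filter, only 0 to 1 of the 10 were tested, and each tested gene was called. The share called was 18.7% to 33.3% of the genes tested in these fits. Genes called with a filter passed it through the pericytes, where they are high, and so had to differ. Without the filter, the 2 genes higher in pericytes (1.74%) became 0 by gate (0.0174%) and 0 to 2 without each plate (0.0588% to 1.28%).

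By gate, *Notch3* turned to 0.17, *Notch4* to −1.04, *Hey2* to 0.55, *Dlk1* to 0.54 and *Egfl7* to −0.62 in the log2 fold change without the filter, and pooled log2 ratios turned to 0.77 for *Notch3*, −0.69 for *Notch4* and 0.28 for *Heyl*. The CD31-gate plates hold 6 endothelial cells and 6 pericytes, so this setting mixes the classes. The 10 genes summed to 37.5 per 10000 in cells of the CD31 gate and 27.9 in cells of the PDGFRB gate, against 21.9 in endothelial cells and 33.4 in pericytes.

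Uncalled genes near 0 changed sign. *Notch1* (−0.0030) was 0.55 with at least 15 UMIs, 0.51 at a mitochondrial limit of 5%, 0.55 with DESeq2, 0.83 without TMM and −0.19 to 0.37 without each plate. *Hes1* (0.35) was −0.16 without the upper UMI limit, −0.14 with the replicate block and −0.036 to 0.80 without each plate.

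Between genotypes, the endothelial count of Notch genes whose interval excluded equal levels was 1 of 6 that could pass (9.95% of all such genes), against 4 of 9 by gate (6.76%), 0 of 5 at a mitochondrial limit of 5% (6.80%), 0 of 2 in CD31-gate plates alone (10.3%) and 0 to 2 without each plate (5.37% to 6.91%). The pericyte count was 0 of 6 (5.30%), against 1 of 9 by gate (6.14%), 1 of 8 without the upper limit (*Jag1*, 8.11%), 2 of 8 in PDGFRB-gate plates alone (197 of 4930 genes) and 0 to 2 without each plate (up to 5.30%). Of 246 values of single genes in the class test, the filter of 15 UMIs left out, 179 kept direction and call, 54 lost the call and 13 changed sign. The filter of 15 UMIs, the pooled class ratio and every setting that joins another choice with no filter were chosen after seeing the data. Depth limits all endothelial values: 3 counts correspond to 0.966 per 10000.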
